A study of Capra hircus with 11 samples.

Results

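Goat ear fibroblasts (Capra hircus) were compared before induction (BFRTV0d) and after 4 days in the BFRTV induction medium (BFRTV4d) by single-cell RNA sequencing. Both groups started as ear fibroblasts plated on Matrigel in fibroblast medium, which was exchanged the next day for the induction medium in the treated cultures and refreshed every 2 days. The labels name neither the compounds in the medium nor the age, sex or number of the goats, and they list 3 samples for each group. Each group was deposited as 1 pooled table in which the samples are not marked, so the comparison sets 1 library against 1 library and has no replicate check. The members are genes. The unique molecular identifiers (UMIs, 1 for each captured transcript) were added up for each gene across a whole table and scaled to a table total of 1000000 (CPM, counts in 1000000). A gene was compared if it reached 10 CPM in 1 of the 2 tables. This held for 8949 of the 15904 genes listed in either table and of the 16678 listed in the whole series. Just outside the limit lay TROAP, at 9.991 CPM on day 0, and BLOC1S3, at 9.995 CPM on day 4, and just inside it lay C10H15orf52 and INPP4A, at 10.005 CPM each on day 4.

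The BFRTV0d table held 10670 barcodes and 117500853 UMIs, and the BFRTV4d table held 10203 barcodes and 106750380 UMIs. A barcode had a median of 10070 UMIs on day 0 and 9665 on day 4, and the median number of genes, after every barcode was thinned to 3000 UMIs, was 1524 and 1297. The 10 genes with the most UMIs took 15.4% of the day 0 table and 26.7% of the day 4 table. The tables had 132 barcode sequences in common, and the counts of called genes moved little without them (482 higher and 515 lower).

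Dermal fibroblasts are mesenchymal cells. They build the collagen matrix, pull on it through actin stress fibres, and answer to transforming growth factor beta, fibroblast growth factors and platelet-derived growth factor. Epithelial cells instead hold a keratin skeleton, join by desmosomes and tight junctions, and rest on a laminin sheet through hemidesmosomes. Mammary epithelium has a basal layer, which carries KRT5 and KRT14, and a luminal layer, which carries KRT8, KRT18 and KRT19. Media made of small molecules act on signalling and chromatin and are used to move fibroblasts toward other cell types without added genes.

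On day 4, 479 genes were higher by 4-fold or more and 516 lower by as much in comparison with day 0, which is 5.35% and 5.77% of the genes compared. At a limit of 2-fold, 1196 genes were higher (13.4%), 2276 were lower (25.4%) and 5477 lay within it (61.2%). These 2-fold shares are the background for the counts of every list in the whole tables. The median gene had a log2 fold of -0.39, so a gene list is described below by its median minus this value. Of the called genes 48.1% were higher, and this share was 62.5% with edgeR's TMM factors, which move the median log2 fold by 0.25, 60.8% with DESeq2's median-of-ratios factors, which move it by 0.21, and 62.3% with the 10 genes with the most UMIs left out of the total. There is no test, since each group is 1 table. The interval given after a fold is an exact 95% binomial interval that covers counting error only. Where a pair of levels is given, day 0 comes first and day 4 second.

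**Figure D1:**
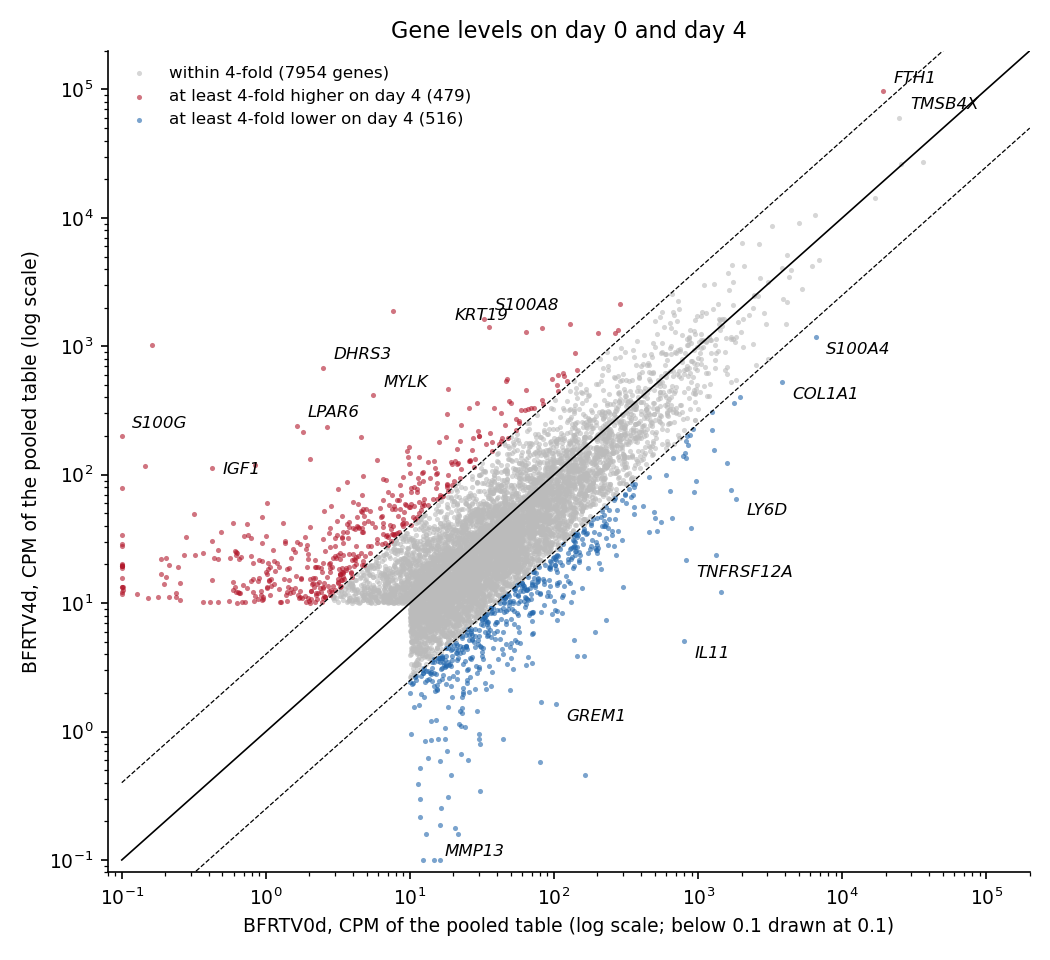
Level of each of the 8949 compared genes in the pooled BFRTV0d table (x axis, CPM, log scale) and BFRTV4d table (y axis, CPM, log scale), with each point 1 gene, the solid line equality and the dashed lines 4-fold. The 479 genes in red (5.35%) lay at least 4-fold above equality and the 516 in blue (5.77%) at least 4-fold below it, with DHRS3 and S100G among those far above and IL11 and TNFRSF12A among those far below.

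A sum alone does not separate fewer cells with a gene from less RNA in each cell, so shares and levels within groups of cells are given beside the sums.

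The label of day 0 cells as fibroblasts was checked by clustering the barcodes of each table. Clusters were set apart by the summed CPM of a list of fibroblast genes and a list of epithelial genes. A cluster was called collagen-bearing or keratin-bearing if 1 sum was at least 5 times the other. Among the fibroblast genes were COL1A1, COL1A2, COL3A1, COL6A1, COL6A2, COL6A3, PDGFRA and LOX. Among the epithelial genes were KRT5, KRT7, KRT8, KRT14, KRT18, KRT19, CDH3, DSP, CLDN1, CLDN4, EHF and TP63. A difference between the classes in these genes is therefore not a separate readout. On day 0, clusters 1 to 7 were collagen-bearing and held 92.3% of the barcodes (95% interval 91.8 to 92.8), and clusters 8 and 9 were keratin-bearing and held 7.66% (7.16 to 8.18; 817 barcodes). So the fibroblast table contained a minority of cells that carried keratins before induction. On day 4, collagen-bearing clusters 1, 2 and 8 held 44.5% (43.5 to 45.4), keratin-bearing clusters 3, 5 and 6 held 45.7% (44.8 to 46.7), and clusters 4 and 7 carried both sets and held 9.81% (9.24 to 10.4). Cluster 4 had 890 barcodes with a median of 15256 UMIs, against 9665 over the table. A doublet caller marked 52.6% of its barcodes as likely to hold more than 1 cell, and no barcode was removed for this, since the caller did not work in the day 0 table. The summed CPM of the endothelial markers PECAM1, CDH5, VWF, KDR, TEK, TIE1, ESAM and CLDN5 was between 0 and 7.27 in every cluster of both tables. That of the immune markers PTPRC, CD68, CD14, CSF1R, CD74, LYZ, AIF1 and CD3E was between 14.2 and 48.5. The cut between classes was set after the clusters were seen, the classes are described by the genes that set them apart, and different clusters make up a class on each day.

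**Figure D2:**
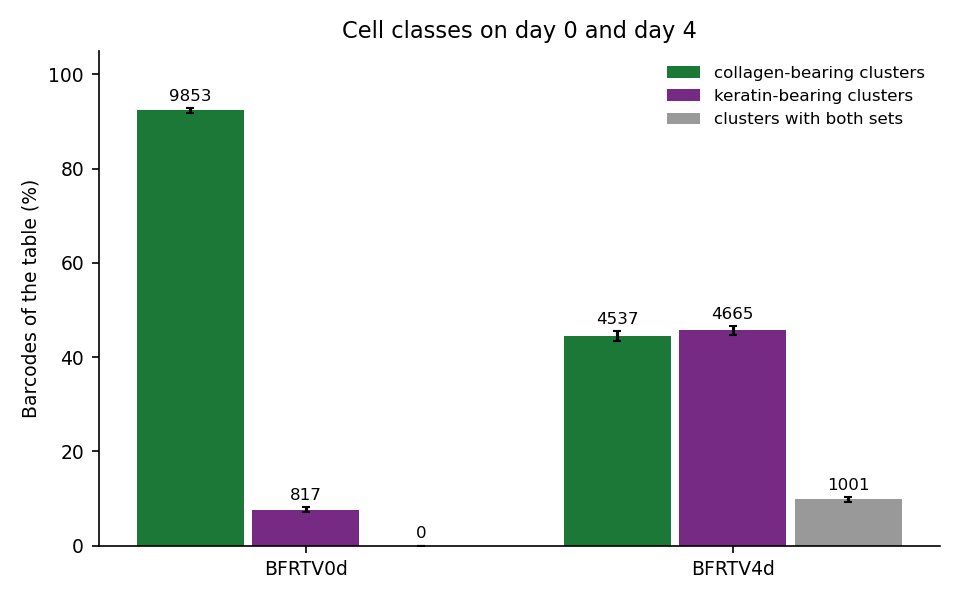
Share of barcodes (y axis, percent of the table) in collagen-bearing clusters, keratin-bearing clusters and clusters with both gene sets on each day, with exact 95% binomial intervals and the number of barcodes above each bar. Collagen-bearing clusters held 92.3% of the day 0 table and 44.5% of the day 4 table, and keratin-bearing clusters 7.66% and 45.7%.

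The called genes were then compared within each class. In collagen-bearing clusters 367 genes were higher by 4-fold or more (4.26%) and 1084 lower by as much (12.6%) on day 4, and in keratin-bearing clusters 354 were higher (4.06%) and 289 lower (3.32%). The median log2 fold of all genes compared was -0.73 in the former and -0.02 in the latter, and the list medians given for a class are relative to these. Of the 479 genes called higher in the whole tables, 83 passed 4-fold in both classes, 148 in the collagen-bearing class alone, 138 in the keratin-bearing class alone and 110 (23.0%) in neither. A gene counted as passing only where it reached 10 CPM within the class, which held in both classes for 225 of the 479. Of the genes that passed in neither, 85 had at least 10 CPM in keratin-bearing clusters on day 0 already. DSP, which encodes the plaque protein desmoplakin, was at 20.3 CPM and 88.7 CPM in the whole tables but at 143 CPM and 167 CPM in keratin-bearing clusters. Of the 516 genes called lower, 111 passed in both classes, 313 in the collagen-bearing class alone, 35 in the keratin-bearing class alone and 57 (11.05%) in neither.

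**Figure D3:**
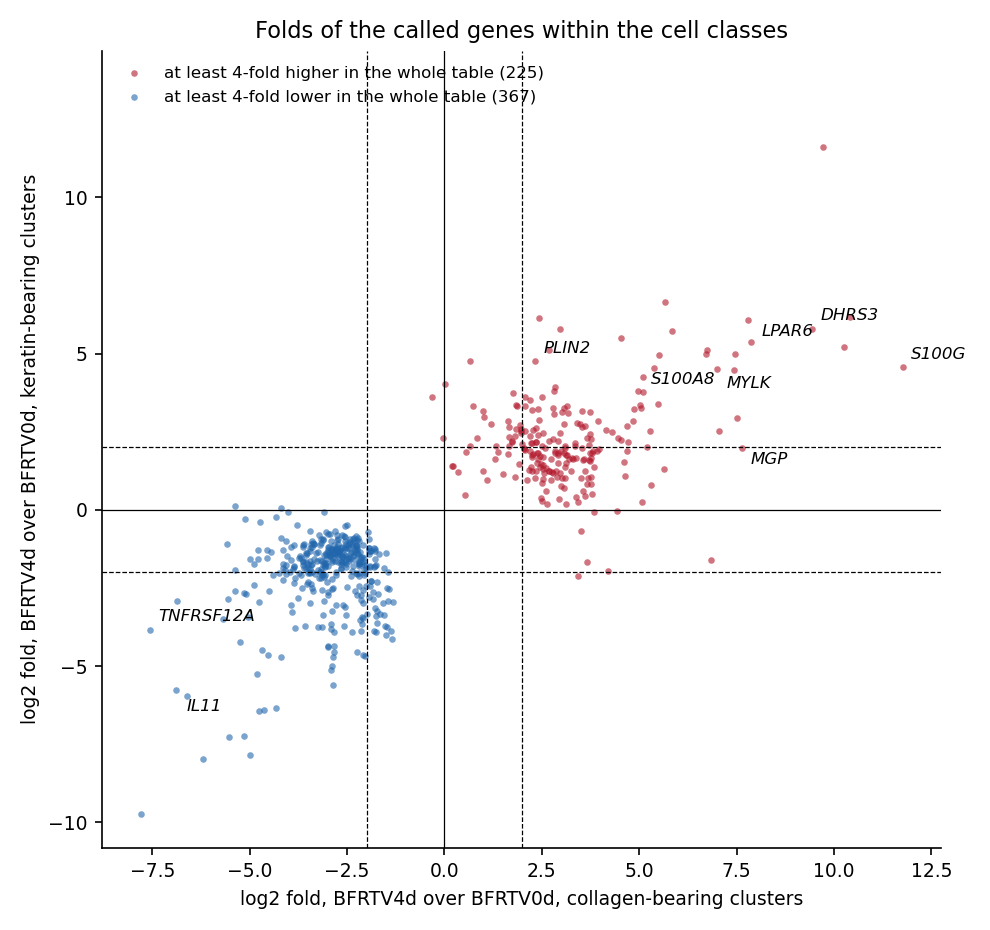
The log2 fold of BFRTV4d over BFRTV0d within collagen-bearing clusters (x axis) and within keratin-bearing clusters (y axis) for the 225 higher and 367 lower genes that reached 10 CPM in both classes, with dashed lines at 4-fold and an unlisted gene set at the floor of 11 UMIs. DHRS3, LPAR6 and MYLK lie at the upper right, past 4-fold in both classes, and IL11 and TNFRSF12A at the lower left, while MGP lies far to the right, just under 4-fold in keratin-bearing clusters.

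Genes that were higher in both classes included several receptors, enzymes and regulators. DHRS3, a reductase that turns retinal back to retinol, was at 2.51 CPM on day 0 and 681 CPM on day 4, 271-fold higher (242 to 305). It was found in 0.628% of cells on day 0 and 84.9% on day 4 at 3000 UMIs a cell. Its day 4 level was nearly even between the classes, at 663 CPM in collagen-bearing clusters (from 0.952) and 704 CPM in keratin-bearing clusters (from 12.7). LPAR6, a receptor for lysophosphatidic acid, was 146-fold higher (127 to 169), from 1.65 CPM to 241 CPM, with 219 CPM and 262 CPM in the classes. SOX4, a transcription factor of progenitor cells, was at 54.3 CPM and 455 CPM in collagen-bearing clusters and at 128 CPM and 453 CPM in keratin-bearing clusters, where it stayed under 4-fold. The vitamin D receptor VDR was at 4.93 CPM and 67.6 CPM in the former and at 21.2 CPM and 74.0 CPM in the latter. MARCKS, a substrate of protein kinase C at the membrane, went from 29.6 CPM to 219 CPM in the whole tables. It was at 20.4 CPM and 177 CPM in collagen-bearing clusters and at 89.5 CPM and 256 CPM in keratin-bearing clusters. VDR and MARCKS, like SOX4, stayed under 4-fold in keratin-bearing clusters. CEBPD, a transcription factor of the acute phase and of fat cell formation, was at 65.8 CPM and 379 CPM in collagen-bearing clusters and at 43.6 CPM and 241 CPM in keratin-bearing clusters.

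Some calls in collagen-bearing clusters rest on low levels of genes that were abundant in the other class. S100A8, a calcium-binding protein of inflamed epithelium, was at 78.1 CPM in collagen-bearing clusters on day 4 against 3174 CPM in keratin-bearing clusters, and KRT19 was at 58.9 CPM against 2590.4 CPM. KRT5 and KRT14, which like KRT19 help to define the classes, were at 115 CPM against 4143 CPM and at 81.0 CPM against 2979.8 CPM. At least 1 UMI of KRT19 was found in 43.0% of barcodes in collagen-bearing clusters and 91.3% in keratin-bearing clusters, at median depths of 9334 and 9425 UMIs a barcode. Free RNA in the droplets would give such a low level in every cell, and its part in these values was not tested.

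Genes lower in both classes included secreted products and surface proteins. IL11, a cytokine of fibrotic tissue, was 158-fold lower (145 to 172), from 799.6 CPM to 5.07 CPM. Its level was 902 CPM and 7.62 CPM in collagen-bearing clusters and 132 CPM and 2.41 CPM in keratin-bearing clusters. The fibroblast list summed to 1968 CPM and 1624 CPM in keratin-bearing clusters 8 and 9 on day 0. It summed to 282, 244 and 265 CPM in clusters 3, 5 and 6 on day 4. On day 0 the median depth was 16746 UMIs in keratin-bearing and 9885 in collagen-bearing clusters. The part of free RNA or doublets in the day 0 levels of fibroblast genes in keratin-bearing clusters was not tested. TNFRSF12A, the receptor for the cytokine TWEAK, went from 826 CPM to 21.7 CPM, ESM1, a secreted proteoglycan, from 1701 CPM to 75.9 CPM, and LY6D, a surface protein of keratinocytes and other cells, from 1826 CPM to 65.0 CPM. LY6D was carried by both classes on day 0, at 1922 CPM and 1197 CPM, so in these cells it did not mark keratin-bearing clusters. S100A4, a calcium-binding protein of motile cells, lost the most CPM of any gene called lower, from 6527 to 1179. The difference was larger in collagen-bearing clusters (6493 CPM and 385 CPM) than in keratin-bearing clusters (6747 CPM and 1971 CPM).

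**Figure D4:**
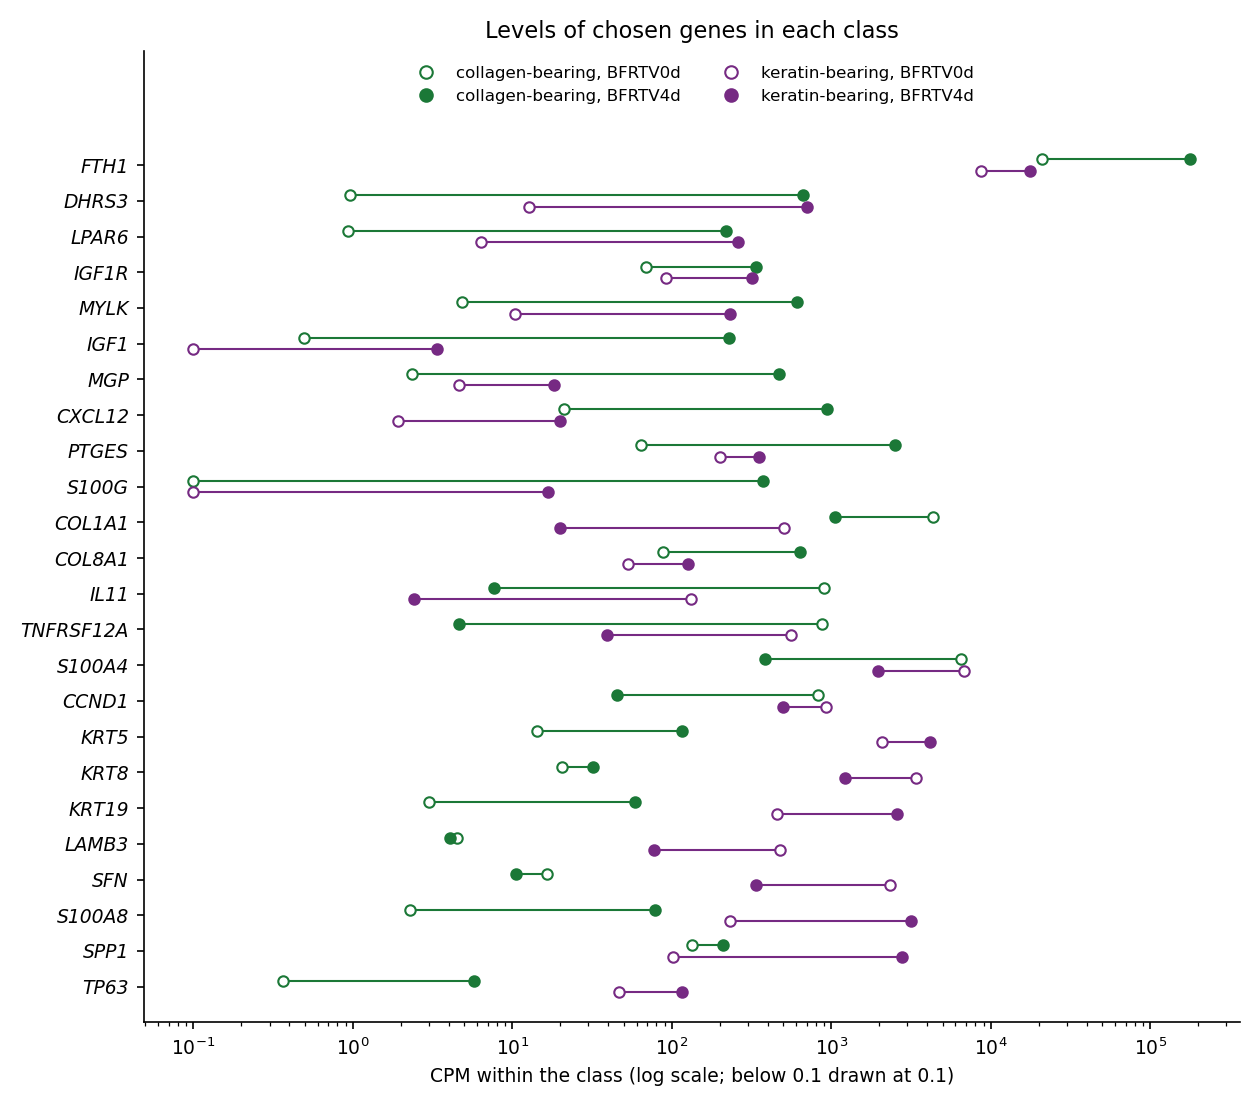
CPM (x axis, log scale) of 24 genes within collagen-bearing clusters (green) and keratin-bearing clusters (purple) on day 0 (open circles) and day 4 (filled circles). DHRS3 and LPAR6 reached like levels in both classes, IGF1, MGP and S100G were high on day 4 in collagen-bearing clusters, and KRT8, LAMB3 and SFN were lower in keratin-bearing clusters on day 4 than on day 0.

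Of the 19 collagen chain genes compared, 5 were higher by 2-fold or more and 11 lower by as much on day 4, against 13.4% and 25.4% of all genes. Their median log2 fold relative to all genes was -0.93, and it was -0.34 in collagen-bearing clusters and -0.43 in keratin-bearing clusters. With a minimum of 1 CPM, which brings in chains of low level, it was 0.49 in the whole tables. COL1A1, a chain of the main fibrillar collagen, was at 3828 CPM and 524 CPM, 7.30-fold lower (7.23 to 7.36), and within collagen-bearing clusters at 4338 CPM and 1049 CPM. The beaded-filament chains COL6A1, COL6A2 and COL6A3 were lower together, COL6A2 from 936 CPM to 73.4 CPM. COL5A3 was 26.4-fold lower (24.3 to 28.8) and COL15A1 12.9-fold lower (12.1 to 13.7). Other chains were higher. COL8A1, a short-chain network collagen, was at 87.7 CPM and 638 CPM in collagen-bearing clusters, and COL14A1, which coats collagen fibrils, at 72.6 CPM and 207 CPM. COL17A1, the collagen of hemidesmosomes, went from 56.6 CPM to 263 CPM in the whole tables but from 402 CPM to 491 CPM in keratin-bearing clusters.

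Most of the enzymes that process collagen were lower in the whole tables. Of 20 compared, 0 were higher by 2-fold or more and 13 lower by as much (median -0.86 relative to all genes). In collagen-bearing clusters 1 of 20 was higher and 11 lower (median -0.29), against 10.5% and 39.8% of all genes there. In keratin-bearing clusters 0 of 19 were higher and 10 lower (median -1.08), against 13.9% and 12.7%. SERPINH1, the collagen chaperone HSP47, was at 805 CPM and 147 CPM, and PCOLCE2, an enhancer of procollagen cleavage, was 12.1-fold lower (11.4 to 13.0). LOX, which cross-links collagen, had 72.1 CPM and 86.8 CPM in the whole tables and 80.3 CPM and 162 CPM in collagen-bearing clusters. Among 29 matrix glycoproteins and proteoglycans, 4 were higher and 14 lower, with a median of -0.49. Within the classes the median was 0.14 in collagen-bearing clusters and -2.02 in keratin-bearing clusters. The elastic fibre genes ELN (44.1 CPM and 4.05 CPM), MFAP2 (277 CPM and 36.3 CPM) and FBLN5 (18.6 CPM and 2.61 CPM) were among the lowest. MGP, an inhibitor of calcification, stood at the other end at 2.66 CPM and 234 CPM, with 471 CPM in collagen-bearing and 18.3 CPM in keratin-bearing clusters on day 4.

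Matrix proteases and their inhibitors had the lowest median of the lists with 8 or more genes in the whole tables, at -1.06 relative to all genes, with 5 of 23 higher by 2-fold or more and 12 lower by as much. The median was -0.63 in collagen-bearing clusters and -1.51 in keratin-bearing clusters. The collagenases MMP1 and MMP13 and the stromelysin MMP3 were each lower. MMP1 was at 46.1 CPM and 4.83 CPM and MMP3 at 30.8 CPM and 0.347 CPM. MMP13 was at 14.6 CPM on day 0 and was not listed on day 4. Each table lists genes found in at least 11 barcodes, and with 11 UMIs taken as the floor of an unlisted gene MMP13 was 142-fold lower. This is not a firm bound, since a barcode can hold more than 1 UMI of a gene. ADAMTS1, a protease that cuts proteoglycans, was higher in collagen-bearing clusters, at 186 CPM and 776 CPM.

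Most keratin genes were higher in the whole tables, but not all of these within keratin-bearing clusters. Of 9 compared, 6 were at least 2-fold higher and 0 lower (median 1.82). In keratin-bearing clusters 4 of 9 were higher and 2 lower, against 13.9% and 12.7% of all genes there. KRT19 was at 459 CPM and 2590.4 CPM there, KRT7 at 322 CPM and 1026 CPM, and the basal keratin KRT5 at 2063 CPM and 4143 CPM. KRT8 and KRT18, the pair that forms the filaments of simple epithelia, were at 3395 CPM and 1212 CPM and at 647 CPM and 199 CPM. So the luminal keratins did not move together, with KRT19 higher and KRT8 and KRT18 lower within the class. In the whole tables KRT8 had 469 CPM and 618 CPM. KRT35, a hair keratin, was at 0.315 CPM and 49.6 CPM.

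Epithelial transcription factors had the highest median of the lists with 8 or more genes, at 2.30 relative to all genes, with 11 of 16 higher by 2-fold or more and 1 lower by as much. Of 24 listed, 16 were compared, and BARX2, EHF, FOXA1, GATA3 and TP63 among them reached 10 CPM on day 4 alone. Such a gene could not count as lower, so this median and these counts in part reflect the minimum of 10 CPM. Within keratin-bearing clusters the median was 1.19, with 12 of 18 higher and 2 lower, against 13.9% and 12.7% of all genes there. The minimum of 10 CPM also acts within the class, where FOXA1, for 1, reached it on day 4 alone and could not count as lower. EHF, an ETS factor of glandular epithelium, was at 42.6 CPM and 242 CPM in these clusters. GATA3, a regulator of luminal mammary cells, was at 34.4 CPM and 97.2 CPM, TP63, a regulator of basal cells, at 46.7 CPM and 116 CPM, and FOXA1, a pioneer factor of luminal cells, at 3.46 CPM and 21.6 CPM. TFAP2B went the other way within the class, at 123 CPM and 52.7 CPM. KLF4, a factor of the skin barrier, was lower in the whole tables, at 52.7 CPM and 17.8 CPM.

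Junction genes differed between the whole tables and the class. Of 15 tight junction and polarity genes, 11 were at least 2-fold higher and 0 lower in the whole tables (median 1.81). Within keratin-bearing clusters the median was -0.03, with 1 of 19 higher and 4 lower, against 13.9% and 12.7% of all genes there. In the whole tables CLDN1, CLDN10, F11R, MARVELD3 and ST14 reached 10 CPM on day 4 alone, so they could not count as lower there. CLDN1, a sealing claudin, was at 46.3 CPM and 89.2 CPM in the class, and CLDN4 at 229 CPM and 43.0 CPM. For desmosome and cadherin genes the medians were 1.23 and -0.08. The mesenchymal cadherins CDH2 (55.5 CPM and 13.9 CPM) and CDH11 (227 CPM and 71.1 CPM) were lower. Integrins had medians of 1.09 and -0.03. The hemidesmosome pair ITGA6 and ITGB4 was higher in the whole tables but at 320.3 CPM and 309.6 CPM and at 323 CPM and 269 CPM within the class. ITGB1, the common beta chain, had 1134 CPM and 1084 CPM.

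Genes for 2 laminin chains of skin and gland epithelium and several skin barrier genes were lower within keratin-bearing clusters. LAMB3 was at 478 CPM and 77.1 CPM and LAMA3 at 291 CPM and 73.9 CPM. In contrast LAMB1 was at 14.5 CPM and 128 CPM in this class and at 11.03 CPM and 148 CPM in collagen-bearing clusters, and LAMA4 was at 8.85 CPM and 106 CPM in the latter. Of 11 genes of keratinocyte differentiation compared in keratin-bearing clusters, 3 were higher by 2-fold or more and 7 lower by as much (13.9% and 12.7% of all genes in that class). SFN, the 14-3-3 protein of stratified epithelium, was at 2338 CPM and 335 CPM, LYPD3 at 109 CPM and 2.24 CPM, and the gap junction gene GJB2 at 966 CPM and 447 CPM. PPL, a component of the envelope, and CSTA, a protease inhibitor, were higher, CSTA at 38.7 CPM and 80.7 CPM.

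Many contractile genes were higher in collagen-bearing clusters. Of 29 compared in the whole tables, 12 were at least 2-fold higher and 1 lower. In collagen-bearing clusters 14 of 28 were higher and 1 lower, with a median of 1.76 relative to all genes, against 10.5% and 39.8% of all genes in that class, and in keratin-bearing clusters the median was 0.02. MYLK, the kinase that switches on smooth muscle myosin, was at 5.56 CPM and 414 CPM, 74.5-fold higher (69.0 to 80.7), with 612 CPM in collagen-bearing and 232 CPM in keratin-bearing clusters on day 4. ACTA2, smooth muscle actin, was added after its values were seen and was at 219 CPM and 2235 CPM in collagen-bearing clusters. MYH11, the smooth muscle myosin heavy chain, was not listed on day 0 and was at 54.2 CPM in collagen-bearing clusters on day 4. LMOD1, which seeds actin filaments in smooth muscle, was at 1.23 CPM and 30.8 CPM there. TAGLN, a further marker of these filaments, was at 1242 CPM and 1312 CPM in collagen-bearing clusters and at 1812 CPM and 295 CPM in keratin-bearing clusters. The monomer-binding gene TMSB4X went from 24946 CPM to 60432 CPM in the whole tables. NES, an intermediate filament of progenitor and dividing cells, was 37.1-fold lower (33.6 to 41.0).

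Transforming growth factor beta signals through paired receptors and the proteins SMAD2 and SMAD3, while SMAD7 and BAMBI hold it back. Of 28 genes of this pathway, 5 were higher by 2-fold or more and 12 lower by as much, with a median of -0.45 relative to all genes. The median was -0.28 in collagen-bearing clusters and -0.65 in keratin-bearing clusters. The ligand gene TGFB1 was at 141 CPM and 29.8 CPM. The receptor gene TGFBR2 was at 66.2 CPM and 152 CPM, and SMAD3 at 9.43 CPM and 35.3 CPM. SMAD7, which the pathway induces, was 23.8-fold lower (20.8 to 27.3), from 49.8 CPM to 2.09 CPM. BAMBI went the other way, at 8.74 CPM and 21.8 CPM. The further targets IL11 and PMEPA1 were lower, PMEPA1 at 135 CPM and 27.5 CPM, while TGFBI of the same list was at 354 CPM and 340 CPM. CTGF, another target, differed by class, at 173 CPM and 354 CPM in collagen-bearing clusters and at 113 CPM and 38.4 CPM in keratin-bearing clusters.

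Bone morphogenetic proteins act through SMAD1, SMAD5 and SMAD9, and the ID genes are their common targets. Of 14 genes, 1 was at least 2-fold higher and 4 lower (median -0.11, with 0.26 in collagen-bearing and -0.19 in keratin-bearing clusters). GREM1, a secreted inhibitor of the ligands, was 62.6-fold lower (53.9 to 73.1), from 103 CPM to 1.64 CPM. ID3 was at 716 CPM and 1572 CPM, with 712 CPM and 2276 CPM in keratin-bearing clusters and 717 CPM and 954 CPM in collagen-bearing clusters. ID1 was at 569 CPM and 1926 CPM in the former and at 809 CPM and 569.7 CPM in the latter. The ligand gene BMP4 was at 20.7 CPM and 7.62 CPM.

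Among 20 genes of the WNT pathway, 6 were at least 2-fold higher and 7 lower. The ligands WNT5A and WNT5B were lower. WNT5A, a ligand that acts mainly without beta-catenin, was at 887 CPM and 38.7 CPM, 22.9-fold lower (22.2 to 23.7), and WNT5B at 36.7 CPM and 2.27 CPM. The receptor genes FZD4 (6.88 CPM and 34.2 CPM), FZD6 (8.16 CPM and 21.4 CPM) and FZD7 (2.41 CPM and 18.8 CPM) were higher, and FZD1 was lower (52.3 CPM and 16.1 CPM). SFRP1, a secreted inhibitor, was at 8.56 CPM and 83.7 CPM.

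Growth factor genes moved in both directions. For fibroblast, platelet-derived, vascular endothelial and hepatocyte growth factors, 5 of 25 genes were at least 2-fold higher and 14 lower (median -0.88), and the median was -0.27 in collagen-bearing clusters and -0.02 in keratin-bearing clusters. FGFR1, the mesenchymal receptor, was at 222 CPM and 39.8 CPM, whereas FGFR2, which epithelia use, was at 3.78 CPM and 31.1 CPM in keratin-bearing clusters. PDGFRA, a receptor of fibroblasts, was higher, at 44.8 CPM and 91.7 CPM in the whole tables and 50.5 CPM and 181 CPM in collagen-bearing clusters. SPRY4, a feedback inhibitor of this signalling, was 28.8-fold lower (21.2 to 40.1), and KITLG, the ligand of KIT, was at 113 CPM and 11.2 CPM. In the epidermal growth factor system 5 of 11 genes were higher and 0 lower (median 1.36). The ligand NRG1 was at 64.2 CPM and 168 CPM in keratin-bearing clusters and BTC at 4.35 CPM and 19.4 CPM, while TGFA was at 109 CPM and 23.2 CPM and AREG at 154 CPM and 84.1 CPM. ERRFI1, an inhibitor that binds the receptor, was at 75.8 CPM and 292 CPM, and the receptor gene EGFR itself at 20.5 CPM and 35.0 CPM.

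Of 11 genes of the insulin-like growth factor system, 4 were at least 2-fold higher and 0 lower. The ligand IGF1 was at 0.426 CPM on day 0 and 114 CPM on day 4, 267-fold higher (202 to 359.9), and on day 4 it was at 229.5 CPM in collagen-bearing clusters against 3.36 CPM in keratin-bearing clusters. The receptor gene IGF1R was higher in both classes, at 69.1 CPM and 335 CPM in collagen-bearing and 92.0 CPM and 319.8 CPM in keratin-bearing clusters. IGFBP7, a secreted protein of this family, was at 66.6 CPM and 225 CPM, and IGFBP5 at 757 CPM and 1125 CPM in collagen-bearing clusters.

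Signals between neighbouring cells moved both ways. Of 30 Notch, ephrin and semaphorin genes, 9 were at least 2-fold higher and 8 lower, against 13.4% and 25.4% of all genes. In keratin-bearing clusters 13 of 33 were higher and 6 lower, against 13.9% and 12.7% of all genes there. EFNA5, an ephrin ligand, was at 11.3 CPM and 61.4 CPM in these clusters and the Notch ligand JAG2 at 28.7 CPM and 52.0 CPM. LFNG, an enzyme that modifies Notch, was 21.5-fold lower (16.8 to 28.0), and SEMA7A, a membrane-bound semaphorin, 12.2-fold lower (11.2 to 13.2).

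Among 34 interleukin, chemokine and prostaglandin genes, 7 were at least 2-fold higher and 11 lower, against 13.4% and 25.4% of all genes. CXCL12, a chemokine of connective tissue, was at 21.0 CPM and 944 CPM in collagen-bearing clusters, and PTGES, which makes prostaglandin E2, at 64.1 CPM and 2516 CPM. LIF, a cytokine of the IL6 family, was at 199 CPM and 28.4 CPM, and CSF3, a colony-stimulating factor, at 11.7 CPM and 0.525 CPM. CSF2, a related factor, was at 12.3 CPM on day 0 and was not listed on day 4. Interferon-stimulated genes split as well, with 5 of 16 higher and 2 lower. The immunoproteasome genes PSMB8 (21.3 CPM and 75.2 CPM) and PSMB9 (4.29 CPM and 39.7 CPM) were higher and ISG15, a ubiquitin-like protein, was lower (26.0 CPM and 2.67 CPM).

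Retinoic acid is made from vitamin A by RDH10 and the ALDH1A enzymes, binds the receptors RARA, RARB and RARG, and induces DHRS3 and RARB. Of 19 retinoid genes, 5 were at least 2-fold higher and 5 lower, against 13.4% and 25.4% of all genes. Beside DHRS3, RARB was at 0.434 CPM and 22.5 CPM, with 41.1 CPM in collagen-bearing clusters and 3.74 CPM in keratin-bearing clusters on day 4. CRABP1, which binds retinoic acid in the cytosol, was not listed on day 0 and was at 41.4 CPM in collagen-bearing clusters on day 4. RDH10 was at 44.4 CPM and 5.94 CPM, ALDH1A3 at 72.2 CPM and 8.27 CPM in keratin-bearing clusters, RARA at 46.6 CPM and 16.8 CPM and RARG at 105 CPM and 42.1 CPM.

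Cyclic AMP is made by adenylyl cyclases, broken down by phosphodiesterases and read by protein kinase A and the factor CREB. Of 37 genes, 6 were at least 2-fold higher and 11 lower, against 13.4% and 25.4% of all genes. PDE4B, a phosphodiesterase that cyclic AMP induces, was at 16.9 CPM and 68.2 CPM, PDE7A was at 12.4 CPM and 40.2 CPM, and PDE4D at 29.6 CPM and 54.0 CPM. The phosphodiesterase genes PDE3A (34.8 CPM and 11.4 CPM), PDE4A (42.3 CPM and 19.5 CPM) and PDE8A (18.0 CPM and 6.53 CPM) were lower. The cyclase gene ADCY3 was at 19.1 CPM and 3.38 CPM, and PKIB, an inhibitor of protein kinase A, was 10.4-fold lower (9.52 to 11.3). FOS was at 80.5 CPM and 197 CPM, while the targets FOSB (16.4 CPM and 4.42 CPM) and NR4A2 (67.5 CPM and 27.9 CPM) were lower. Other members of the list were split too. In the whole tables PER1 (2.97 CPM and 11.4 CPM), RGS2 (18.0 CPM and 49.0 CPM) and AREG (21.1 CPM and 43.9 CPM) were higher and CRISPLD2 (100 CPM and 38.2 CPM) was lower. Targets of YAP and TEAD, which read cell stretch, had 2 of 18 genes higher and 6 lower, against 13.4% and 25.4% of all genes. AXL, a receptor kinase among them, was 6.88-fold lower (6.51 to 7.27), and CRIM1 was higher, at 29.8 CPM and 74.3 CPM.

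Genes of the cell cycle were lower in collagen-bearing clusters, which was not seen in keratin-bearing clusters. Of 51 DNA replication genes compared in collagen-bearing clusters, 0 were higher by 2-fold or more and 42 lower by as much, against 10.5% and 39.8% of all genes there, with a median of -1.62. In keratin-bearing clusters 4 of 43 were higher and 3 lower (median 0.21), against 13.9% and 12.7% of all genes there. Mitosis genes had 0 higher and 27 lower of 29 in the former (median -1.73) and 4 higher and 0 lower of 32 in the latter (median 0.06). The whole-table medians, -0.69 and 0.17, did not show this split. TOP2A, which untangles chromosomes, was at 40.2 CPM and 20.2 CPM in collagen-bearing clusters and at 53.8 CPM and 127 CPM in keratin-bearing clusters. MCM4, a subunit of the replicative helicase, was at 102 CPM and 3.85 CPM in the former and 44.9 CPM and 34.5 CPM in the latter. CCND1, the cyclin that starts the cycle, was at 828 CPM and 45.0 CPM and at 921 CPM and 498 CPM. CDKN1B, an inhibitor of the cyclin kinases, was at 8.21 CPM and 33.9 CPM in collagen-bearing clusters and CCNG1, a target of p53, at 170.3 CPM and 597 CPM.

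Ferritin heavy chain was the most abundant transcript on day 4. FTH1, the subunit that oxidises stored iron, was at 19243 CPM on day 0 and 97406 CPM on day 4, 5.06-fold higher (5.05 to 5.07), the largest gain in CPM of any gene. In collagen-bearing clusters it was at 20869 CPM and 176992 CPM and in keratin-bearing clusters at 8632 CPM and 17510.5 CPM. The light chain FTL had 16858 CPM and 14247 CPM, so the heavy and light chains did not move in step. Of 16 iron genes, 7 were at least 2-fold higher and 0 lower. CP, an oxidase that loads iron for export, was not listed on day 0 and was at 39.1 CPM in collagen-bearing clusters on day 4, SLC39A8, a metal importer, was at 6.72 CPM and 90.0 CPM in keratin-bearing clusters, and the transferrin receptor TFRC had 60.0 CPM and 40.0 CPM.

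Many glutathione and peroxide enzymes were higher. Of 36 genes, 14 were at least 2-fold higher and 4 lower (median 0.87). The transferases MGST1 (47.2 CPM and 557 CPM) and GSTM3 (38.4 CPM and 329 CPM) were higher in both classes, and so was catalase, CAT, at 12.1 CPM and 103 CPM. GPX2, the peroxidase of epithelia, was at 13.3 CPM and 425 CPM in keratin-bearing clusters. TXNRD1 and SRXN1, typical targets of NRF2, were lower, TXNRD1 at 219 CPM and 70.9 CPM.

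In the whole tables the lists of energy metabolism had medians above that of all genes. Of 58 genes of oxidative phosphorylation, 11 were at least 2-fold higher and 1 lower (median 0.86, with 0.78 in collagen-bearing and 0.67 in keratin-bearing clusters). For glycolysis the counts were 6 and 1 of 23 (median 0.69), and the median was 0.89 in collagen-bearing clusters and -0.39 in keratin-bearing clusters. LDHB, the lactate dehydrogenase chain of oxidative tissue, was at 208 CPM and 802 CPM. PFKM (1.63 CPM and 16.4 CPM) and ALDOC were higher too. The higher members also include FBP1, which runs glycolysis backwards (0.791 CPM and 23.4 CPM), and TXNIP, which limits glucose uptake (8.65 CPM and 69.9 CPM). PFKFB4 was lower, at 15.6 CPM and 6.91 CPM. PKM (1334 CPM and 879 CPM), TPI1 (651 CPM and 456 CPM), HK1 and PFKP (101 CPM and 58.5 CPM) were lower within 2-fold. The list median is therefore not a measure of glycolysis as a whole. PLIN2, which coats lipid droplets, was at 18.6 CPM and 500.2 CPM in keratin-bearing clusters and at 18.0 CPM and 90.7 CPM in collagen-bearing clusters. TM7SF2, a sterol reductase, was at 9.60 CPM and 154 CPM, the only one of 19 cholesterol genes at least 2-fold higher in the whole tables. In collagen-bearing clusters 15 of 19 were at least 2-fold lower, against 39.8% of all genes there, and in keratin-bearing clusters 1 of 18, against 12.7%. Among amino acid genes SDS, a serine dehydratase of the liver, was at 0.167 CPM and 225 CPM in collagen-bearing clusters, GLUL, glutamine synthetase, at 78.5 CPM and 385 CPM in keratin-bearing clusters, and the stress factor DDIT3 at 105 CPM and 26.5 CPM.

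Many genes for folding secreted proteins were lower. Of 30 genes of the endoplasmic reticulum, 0 were at least 2-fold higher and 15 lower (median -0.61), with MANF at 835 CPM and 201 CPM and CRELD2 at 137 CPM and 27.8 CPM, both induced by unfolded proteins. Cytosolic chaperones had a median of 0.57, with HSP90AB1 at 679 CPM and 1746 CPM and HSP90AA1 at 622 CPM and 376 CPM. Of 47 lysosome genes 3 were higher and 19 lower. Caveolae are membrane pits of stretched cells. Of 8 caveola genes, 1 was at least 2-fold higher and 5 lower in the whole tables, against 13.4% and 25.4% of all genes. In collagen-bearing clusters 1 of 8 was higher and 6 lower, against 10.5% and 39.8% of all genes there. In keratin-bearing clusters 1 of 7 was higher and 1 lower, against 13.9% and 12.7%. SDPR, the cavin that binds phosphatidylserine, was not listed on day 0 and was at 78.9 CPM on day 4, 843-fold higher against the floor of 11 UMIs. The other cavins PTRF (422 CPM and 142 CPM) and PRKCDBP (637 CPM and 74.5 CPM) and the coat protein CAV1 (224 CPM and 119 CPM) were lower. S100G, the calcium-binding calbindin of gut and uterus, was likewise not listed on day 0 and was at 375 CPM in collagen-bearing and 16.8 CPM in keratin-bearing clusters on day 4.

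**Figure D5:**
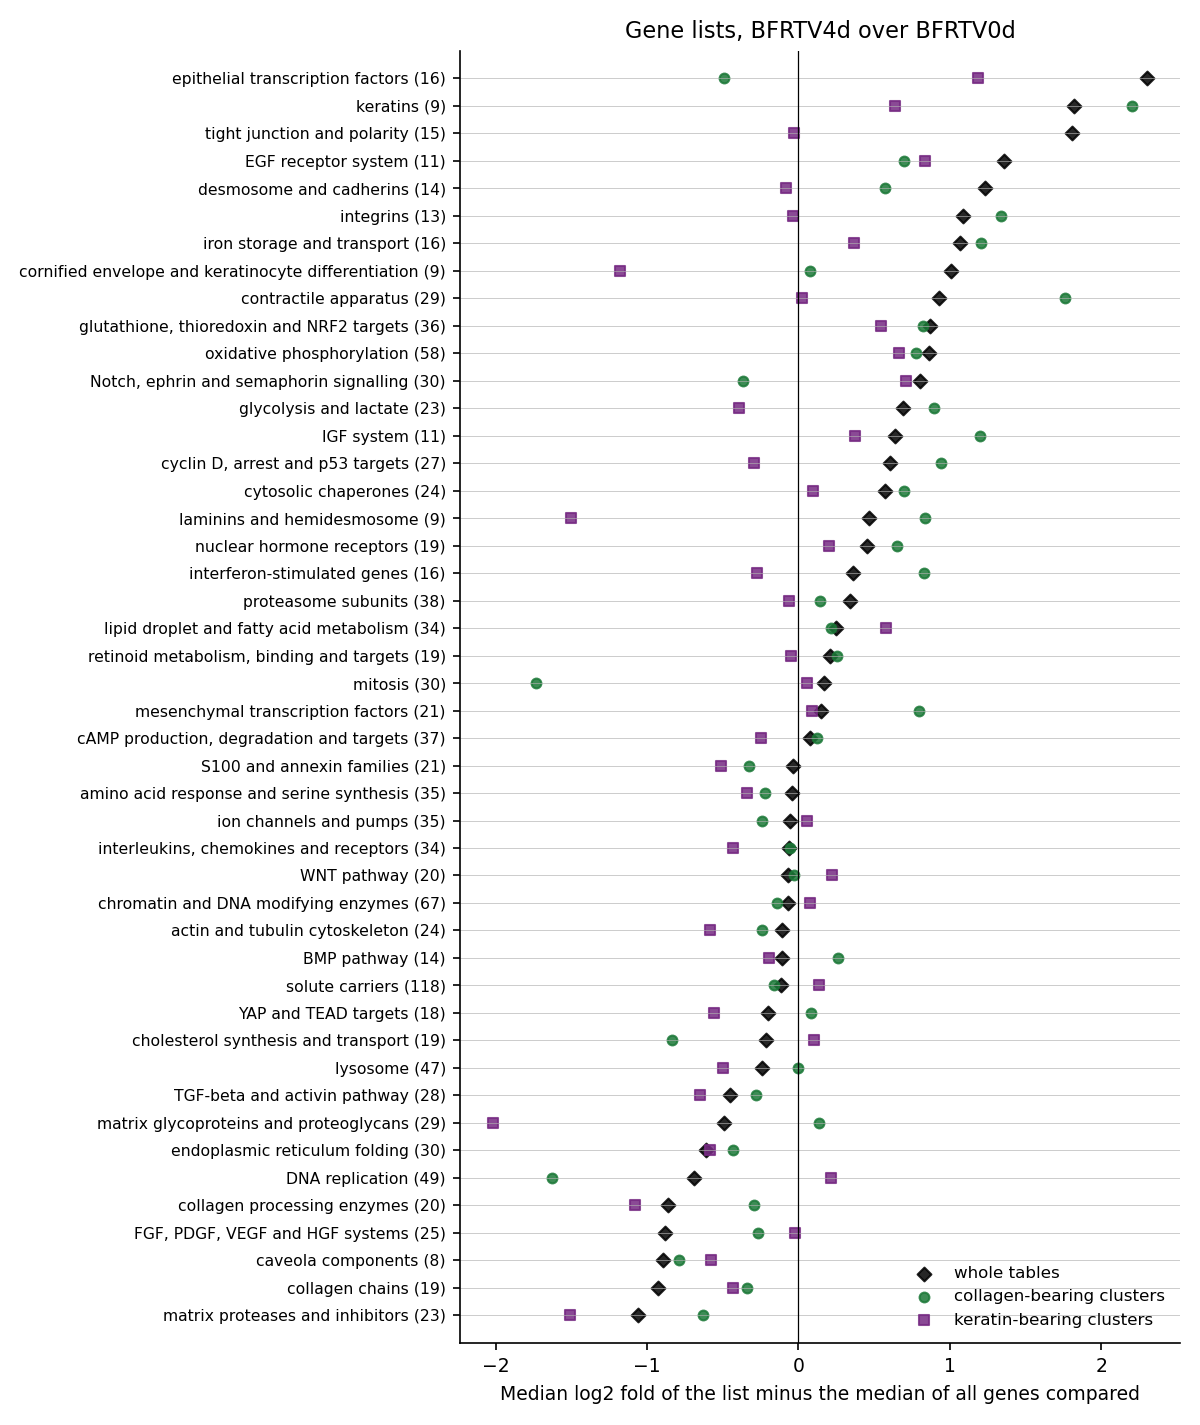
Median log2 fold of each gene list with 8 or more compared genes minus the median of all genes compared (x axis), in the whole tables (black), collagen-bearing clusters (green) and keratin-bearing clusters (purple), with the number of genes compared in brackets and a class drawn where it had 5 or more. Epithelial transcription factors stand at 2.30 and matrix proteases at -1.06, and the cell cycle lists lie far to the left in collagen-bearing clusters alone.

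Of the milk protein and milk fat globule list, 13 genes were listed in either table and 12 in neither. The 4 that reached 10 CPM and were compared were SPP1, CD24, STAT5B and MFGE8. SPP1, a phosphoprotein of milk and bone, was at 102 CPM and 2788 CPM in keratin-bearing clusters. MFGE8, a protein of the milk fat globule, was at 135 CPM and 55.0 CPM. In a longer endothelial list 2 genes reached 10 CPM, neither of them among the markers used to check the clusters, EGFL7 (136 CPM and 36.5 CPM) and ERG (31.5 CPM and 8.16 CPM), and CD14 was the only leukocyte marker that reached 10 CPM (29.2 CPM and 19.9 CPM). No HOX gene reached 10 CPM among the 18 listed. Among mesenchymal transcription factors 4 of 21 were at least 2-fold higher and 6 lower, against 13.4% and 25.4% of all genes. MEOX2 was 14.1-fold lower (12.6 to 15.7), TWIST2 was at 138 CPM and 30.6 CPM, SNAI1 at 50.3 CPM and 13.5 CPM, and RUNX2 at 17.8 CPM and 47.1 CPM. Of 67 chromatin enzymes, 7 were higher and 18 lower, close to the 13.4% and 25.4% of all genes. TET1, which oxidises methylated cytosine, was at 7.14 CPM and 23.1 CPM, and SMYD5, a lysine methyltransferase, at 55.8 CPM and 6.46 CPM.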

How the data were processed

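Cells were detached with trypsin and libraries came from version V2 of the Single Cell 3′ kit (10x Genomics). FastQC 0.10.1 and Cell Ranger appear in the submitters' processing notes. The version of Cell Ranger, the genome build and the annotation were not given in the sources used here. The authors deposited tables of UMI counts, with genes in rows and barcodes in columns, 1 table for each group. Total UMIs were 117500853 (BFRTV0d) and 106750380 (BFRTV4d).

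UMIs were summed over all barcodes and scaled to CPM. Genes that reached 10 CPM on either day were compared by the ratio of CPM, with an exact (Clopper-Pearson) 95% binomial interval. Intervals and floors cover counting error only. A listed gene at 0 was set at 3 UMIs and an unlisted gene at 11 UMIs, the fewest cells in which any gene listed was found. Changes of 4-fold were called and list members were counted at 2-fold. No p-value was computed, because the 3 samples that the labels give each group are pooled and are not said to be separate cultures.

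Shares of cells were taken after thinning each barcode to 3000 UMIs, which left out 45 barcodes of BFRTV4d. Each table was clustered on its own (scanpy 1.11.5, 2000 variable genes, 30 principal components, 15 neighbours, Leiden resolution 0.4), and levels within a class used genes with at least 10 CPM there. No barcode was removed as a doublet. TMM factors (edgeR 4.0.16) and median-of-ratios factors (DESeq2 1.42.0) served as alternative scalings. The ratio and its interval were checked on simulated data.

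The comparison and the 54 gene lists were chosen with earlier results of these data known. Genes named were the 20 highest and 20 lowest folds among genes with at least 50 CPM, the 12 largest gains and losses in CPM, and up to 5 members at each end of every list (all members of some lists). The text describes a part of these, and some are not reported here. Of 15903 gene symbols, 15538 matched RefSeq. A planned search of promoters for motifs was not run, as no sequence table was used here.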

Additional observations from a re-analysis of the deposited data

How the results depend on the processing

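With 1 pooled table in each group the processing was the only thing that could be varied. The 479 higher and 516 lower genes became 1186 and 790 with a minimum of 1 CPM, 1523 and 877 with no minimum, and 168 and 264 with a minimum of 50 CPM. They stayed within 1.5 times of these counts with TMM factors (636 and 381), median-of-ratios factors (606 and 391), the total without the 10 genes with the most UMIs (672 and 406), genes listed in both tables (463 and 513), the mean of per-barcode CPM (554 and 545) and barcodes between the 5th and 95th percentile of UMIs (554 and 558). The settings added after the data were seen gave 485 and 515 without the mixed clusters of BFRTV4d, 482 and 515 without shared barcode sequences, 367 and 1084 in collagen-bearing clusters and 354 and 289 in keratin-bearing clusters. All 479 higher genes remained at 4-fold with TMM factors, and 381 of the 516 lower genes did. These factors raise the fold of every gene by the same amount, so no higher gene could be lost.

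Of the 562 named genes that were compared, the fold of 392 was followed. None of the 392 changed direction with TMM factors, median-of-ratios factors, the mean of per-barcode CPM or without the mixed clusters. This holds for direction alone. The size of the fold was marked as moved for 186 of the 392 with the mean of per-barcode CPM and for 52 without the mixed clusters. TMM and median-of-ratios factors each move every log2 fold by 1 fixed amount. A gene with a large fold could therefore not change direction with them. A list's median relative to all genes changed sign with a minimum of 1 CPM for collagen chains (0.49), mesenchymal transcription factors (-0.14), WNT pathway (0.17), cAMP (-0.0519), solute carriers (0.20), ion channels and pumps (0.26) and neural crest markers (0.58). It changed sign for ion channels and pumps with TMM factors (0.0520) and median-of-ratios factors (0.0593), and for S100 and annexin genes with the mean of per-barcode CPM (0.14). The cause was not tested. Removing doublets was not run, since Scrublet marked 1 of 10670 barcodes on day 0 (0.009%) and 517 of 10203 on day 4 (5.07%). No paired analysis was possible because the columns do not mark the samples, and for the same reason no sample could be left out. The intervals cover counting error only, and the spread between cultures was not measured.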

Other observations

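Several transport genes changed side by side with the groups above. Of 118 solute carrier genes compared, 21 were higher by 2-fold or more and 40 lower by as much on day 4, against 13.4% and 25.4% of all genes. SLC16A11, a monocarboxylate carrier, was at 0.562 CPM and 22.5 CPM, with 19.9 CPM in collagen-bearing and 25.6 CPM in keratin-bearing clusters on day 4. The nucleoside carrier SLC29A1 was at 179 CPM and 26.5 CPM, SLC17A9, which loads vesicles with ATP, at 80.7 CPM and 1.70 CPM, and the glutamine carrier SLC1A5 at 118 CPM and 32.4 CPM. Among 35 channel and pump genes 12 were higher and 7 lower. AQP5, the water channel of glands, was at 0.576 CPM and 29.3 CPM in keratin-bearing clusters, and FXYD3, a regulator of the sodium pump in epithelia, at 115 CPM and 356 CPM. KCNK12, a potassium channel, was 20.4-fold lower (18.4 to 22.8).

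S100 and annexin genes had 5 members higher and 5 lower of 21. S100A8 and S100A9, which form a dimer, were both higher in keratin-bearing clusters, S100A9 at 186 CPM and 651 CPM, while S100A2, a basal cell gene, had 18923 CPM and 16809 CPM there. Proteasome subunits had 3 of 38 genes higher and 2 lower, and nuclear receptors 4 and 3 of 19. NR2F1, an orphan receptor of mesenchyme, was at 7.98 CPM and 64.3 CPM in collagen-bearing clusters. Among the genes with the largest gains in CPM was RACK1, a scaffold on the small ribosomal subunit, at 2011 CPM and 6418 CPM, with 7551 CPM in collagen-bearing and 5401 CPM in keratin-bearing clusters on day 4. Genes named by a locus number alone made up 7.05% of the genes compared, 60 of the 479 higher genes and 31 of the 516 lower genes, and they are not described here.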
